A study of Mus musculus with 2 samples.

Results

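The tumour necrosis factor (TNF) superfamily genes described here are the ligands *Tnf*, *Lta*, *Ltb*, *Tnfsf9* and *Tnfsf12* and the receptors *Tnfrsf1a*, *Tnfrsf1b*, *Tnfrsf9*, *Cd40* and *Fas*. They were chosen by name, with earlier results of these data known. Each was read through every array probe whose accession belongs to it, and 10 of the 10 genes were found among the 20655 genes named on the arrays. RAW264.7 is an established mouse macrophage line that came from ascites of a tumour raised with Abelson murine leukemia virus in an adult male BALB/c mouse. One culture received vehicle and the other received 10 μM IR-61, a near-infrared heptamethine cyanine dye that the study describes as going to mitochondria, and RNA was taken from both after 24 h. The labels name no further stimulus, so neither culture is described as given endotoxin or a cytokine. Each culture was read on 1 single-colour Agilent array, and the 2 arrays shared a slide and a scan. With 1 array per condition no test was possible, no p-value is given, and a single line of cells grown once limits how far the values can be taken as those of macrophages in general.

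TNF superfamily ligands are mostly membrane proteins that assemble as trimers and bind receptors with cysteine-rich outer domains. Some receptors, among them those encoded by *Tnfrsf1a* and *Fas*, carry a death domain inside the cell. Many of the others bind TRAF adaptor proteins that lead to NF-κB and MAP kinases. Macrophages are a main source of TNF, which is made as a membrane protein and cut loose by the protease ADAM17, and its gene is a classical NF-κB target whose mRNA is short-lived. *Tnf*, *Lta* and *Ltb* lie side by side on chromosome 17. *Tnfsf9*, which encodes the ligand of 4-1BB, is also on chromosome 17, *Tnfsf12*, encoding TWEAK, is on chromosome 11, *Tnfrsf1a* is on chromosome 6, *Tnfrsf1b* and *Tnfrsf9* are on chromosome 4, *Cd40* is on chromosome 2 and *Fas* is on chromosome 19.

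The upstream sequences of 3 genes are shown. They belong to the gene that differed most, to 1 of its 2 neighbours in the gene cluster and to the main receptor of the same ligand. The brighter probe of that receptor showed no difference. The other neighbour, *Lta*, is not printed. Each line holds the 250 bases before the annotated start, 5′ to 3′ on the strand of the gene, from RefSeq with assembly GRCm38.p6. The positions are chr17:35202008-35202257 on the minus strand for *Tnf*, chr17:35194257-35194506 on the plus strand for *Ltb* and chr6:125349473-125349722 on the plus strand for *Tnfrsf1a*. Capitals mark TATAAA on the strand of the gene in *Tnf* and a match to the NF-κB (κB) consensus in *Ltb*.
Tnf: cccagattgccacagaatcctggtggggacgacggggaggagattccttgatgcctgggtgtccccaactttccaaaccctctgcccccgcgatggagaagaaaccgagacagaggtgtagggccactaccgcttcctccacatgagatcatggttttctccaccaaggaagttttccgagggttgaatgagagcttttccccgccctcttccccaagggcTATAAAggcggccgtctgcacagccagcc
Ltb: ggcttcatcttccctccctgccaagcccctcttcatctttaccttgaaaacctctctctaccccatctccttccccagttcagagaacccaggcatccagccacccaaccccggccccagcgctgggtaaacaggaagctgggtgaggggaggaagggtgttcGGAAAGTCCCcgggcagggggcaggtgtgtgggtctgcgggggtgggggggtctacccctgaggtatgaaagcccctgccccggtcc
Tnfrsf1a: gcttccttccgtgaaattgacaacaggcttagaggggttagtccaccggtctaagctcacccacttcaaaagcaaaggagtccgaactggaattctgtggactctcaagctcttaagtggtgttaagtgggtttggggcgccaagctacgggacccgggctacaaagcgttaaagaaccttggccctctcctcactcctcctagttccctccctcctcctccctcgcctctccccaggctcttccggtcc
The TATAAA of *Tnf* spanned bases 29 to 24 before the start, and the same letters stood in 2494 of 32851 windows of this length, or 7.59%. The κB consensus, searched on both strands, stood in 2382 of these windows, or 7.25%. In *Ltb* it lay at bases 87 to 78 before the start. Windows were given for 7 of the 10 genes, without *Tnfsf9*, *Tnfsf12* and *Cd40*. Among the 7, *Tnf* and *Lta* held TATAAA and *Ltb* and *Tnfrsf9* held a κB match, at 1 of its 2 listed starts for *Tnfrsf9*. The motif matches did not overlap each other except within *Tnfrsf9*, where neighbouring κB matches shared bases. A match describes letters and not a bound site, and the lack of one says nothing about a factor.

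Signals are the background-subtracted spot intensities that the Agilent software gives, and they are printed without scaling between the arrays. The IR-61 array was brighter, so for comparisons the 75th percentile of each array was subtracted from its log2 signals, which moved the arrays by 0.49 on the log2 scale relative to each other. A log2 difference is the scaled value with IR-61 minus that with vehicle, and a gene with several probes takes its brightest one. The only measurable error is the SD between spots of a probe on the same array. It was taken from a gene's own spots where a probe was printed 10 times, as for *Tnf*, *Lta* and *Tnfrsf1a*, and otherwise from probes of like brightness. The SD given for a log2 difference is that of the difference between the means of the arrays. For it, the squared SD of each array was divided by the number of spots used, so averaging 10 spots makes it smaller. This error leaves out the difference between cultures. Levels of different genes cannot be ranked, because probes differ in how brightly they bind.

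Over the 16885 genes that were well above background on both arrays, the median log2 difference was 0.10 and the middle 95% ran from −0.81 to 0.93. A signal lower by 2-fold or more was seen for 235 genes (1.39%) and a signal higher by 2-fold or more for 336 genes (1.99%). This split depended on the scaling, with 295 lower and 249 higher when arrays were scaled by their median, 279 and 257 after quantile normalization, 279 and 255 after loess, 281 and 266 in the deposited log2 values, and 72 and 2156 with no scaling, where the median gene stood at 0.59. Of 9 macrophage marker genes matched, all were well above background on both arrays, among them *Csf1r* at 95036 and 139205 with vehicle and IR-61. *Adgre1*, the F4/80 antigen, was 2.04-fold higher with IR-61 and *Cd14* 1.97-fold lower. *Col1a1*, *Col1a2*, *Dcn* and *Pdgfra*, usual markers of fibroblasts, were also well above background on both arrays. With vehicle and IR-61, *Col1a1* read 27148 and 58670, *Col1a2* 15029 and 22576, *Dcn* 16543 and 21738, and *Pdgfra* 860 and 1515. Of the 6 fibroblast and epithelial markers measured, 0 differed by 2-fold.

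All 10 genes were well above background on both arrays. In the IR-61-treated cells 3 of them, *Tnf*, *Tnfsf9* and *Cd40*, had a signal lower by at least 2-fold and 0 had one higher by at least 2-fold, against the 1.39% and 1.99% of all genes. Since the genes were chosen with earlier results of these data known, these shares are a description and not a test. In 9 of the 10 the log2 difference was below 0, against 6554 of all 16885 genes. In all 10 it was below the median of all genes. The median over the 10 genes was −0.57, and it was −0.66 over the 5 ligands and −0.47 over the 5 receptors. The 10 values ran from −3.24 for *Tnf* to 0.01 for *Tnfrsf1a*. Relative to the median of all genes, the median of the 10 stood between −0.74 and −0.55 in 12 ways of processing the arrays. Whether fewer cells carrying the RNA of a gene or less of it per cell lay behind a lower signal cannot be told apart in whole cultures.

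**Figure D1:**
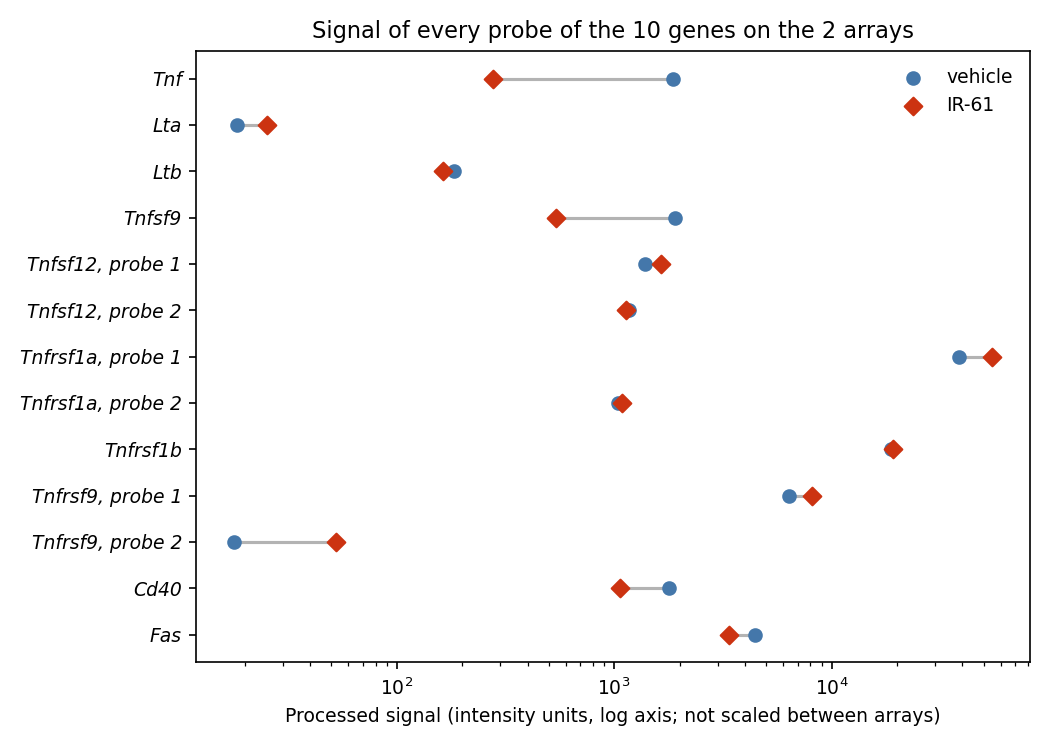
Signal of each of the 13 probes of the 10 genes (rows) in intensity units on a log axis, unscaled, with a circle for the vehicle array and a diamond for the IR-61 array. The diamonds of *Tnf*, *Tnfsf9*, *Cd40* and *Fas* lie to the left of their circles, while both probes of *Tnfrsf9* and both of *Tnfrsf1a* have the diamond to the right.

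*Tnf*, the founding ligand of the family and an early inflammatory cytokine, differed most. On the vehicle array its 10 spots had signals from 1770 to 1971 with a median of 1893. On the IR-61 array the 10 spots ran from 264.66 to 311 with a median of 272. Every spot with IR-61 was thus dimmer than every spot with vehicle, although the IR-61 array was the brighter of the 2. The scaled log2 signal was 0.57 ± 0.05 with vehicle and −2.67 ± 0.07 with IR-61 (SD between 10 spots each). The log2 difference of −3.24, with an SD of 0.028 for the difference between the means of the spots, equals a 9.46-fold lower signal. It was the 4th lowest value among the 16885 genes measured, and it stayed between −3.32 and −2.75 in all 12 ways of processing.

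*Tnfsf9*, whose protein 4-1BBL co-stimulates T cells and also signals back into myeloid cells, was next. Its single spot read 1907 with vehicle and 540 with IR-61. The log2 difference was −2.31 with an SD of 0.160, a 4.96-fold lower signal and rank 19 from the lowest value. It stayed between −2.39 and −1.82 over the same 12 ways. The values of *Tnf* and *Tnfsf9* were 0.93 apart on the log2 scale, more than the SD of 0.163 that the spots give for this gap.

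The other ligands differed by less than 2-fold. *Ltb*, which encodes lymphotoxin beta, the membrane partner of lymphotoxin alpha, read 184 with vehicle and 163 with IR-61. Its log2 difference was −0.66 with an SD of 0.229. *Tnfsf12* had 2 probes, reading 1385 and 1640 on the brighter one and 1173 and 1139 on the other. These gave log2 differences of −0.25 and −0.53, so the probes had the same sign after scaling but opposite signs before it. *Lta*, encoding the secreted lymphotoxin alpha of lymphocytes, was close to the background, and 7 of its 10 spots with vehicle and 10 of 10 with IR-61 were well above it. The signals ran from 11.3 to 30.8 with a median of 16.9 on the vehicle array and from 18.6 to 39.2 with a median of 25.1 on the IR-61 array. The spots of the 2 arrays overlapped, before and after scaling. The log2 difference of *Lta* was −0.04 with an SD of 0.183, so that a difference of about that SD was not detectable. With scaling left out it was 0.45, in the deposited log2 values −0.46, and with the stricter limit on dim probes *Lta* gave no value.

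**Figure D2:**
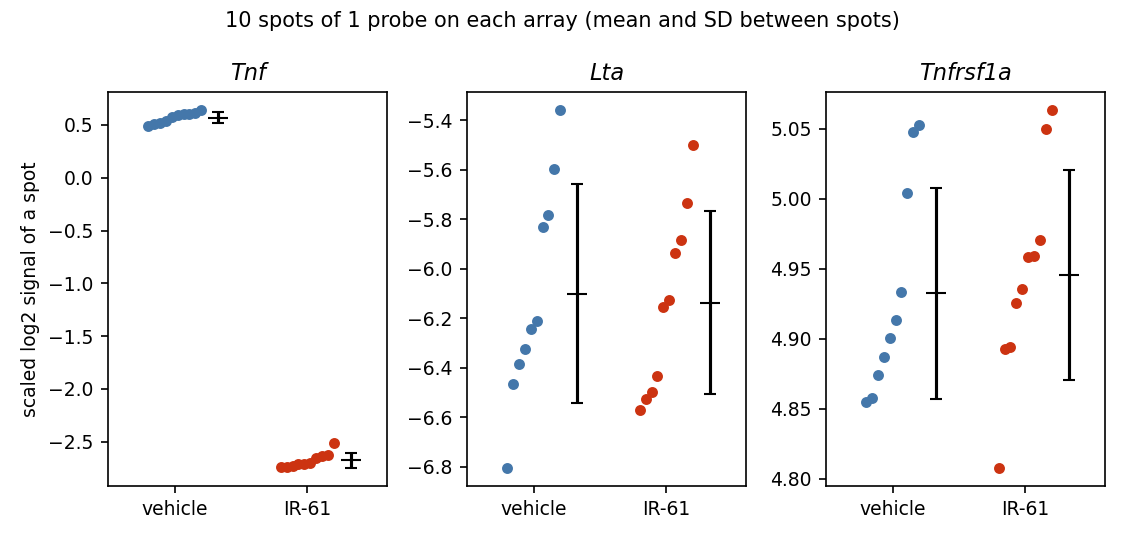
Scaled log2 signal of each of the 10 spots of the probes for *Tnf*, *Lta* and *Tnfrsf1a*, sorted from low to high within an array, with the mean and SD between spots beside them. The vertical axes differ between the panels. The spots of *Tnf* run from 0.49 to 0.64 with vehicle and from −2.74 to −2.51 with IR-61, while those of *Lta* and of *Tnfrsf1a* overlap between the arrays.

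Among the receptors, *Cd40*, through which T cell help reaches macrophages and B cells, was the only one of the 5 lower by 2-fold or more. Its spot read 1783 with vehicle and 1062 with IR-61, a log2 difference of −1.24 with an SD of 0.094 and a 2.36-fold lower signal. It passed the 2-fold limit in 11 of 12 ways of processing, and with no scaling it stood at −0.75. B cells also carry CD40, and 2 of the 5 B cell markers, *Ms4a1* and *Cd79b*, had log2 differences of −1.46 and −1.09. The other 3 lay between −0.09 and 0.36, the summed signal of the 5 was 907 with vehicle and 746 with IR-61, and none was at 0. Their part in the value of *Cd40* was not tested.

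*Fas*, the death receptor of FAS ligand, read 4454 with vehicle and 3392 with IR-61. The log2 difference was −0.88 with an SD of 0.094, a 1.84-fold lower signal, and it was below 0 in 12 of 12 ways. *Tnfrsf1b*, the second TNF receptor, lacks a death domain. It read 18815 and 19068, nearly the same unscaled signal, and its log2 difference of −0.47 with an SD of 0.094 turned to 0.02 with no scaling.

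*Tnfrsf1a*, the death domain receptor of TNF found on nearly all cells, showed no difference on its brighter probe. The 10 spots ran from 36556 to 41919 with a median of 37889 on the vehicle array and from 49629 to 59259 with a median of 54657 on the IR-61 array. Unscaled, the spots did not overlap and were higher with IR-61, and after scaling they overlapped, at 4.93 ± 0.08 and 4.95 ± 0.08. The log2 difference was 0.01 with an SD of 0.034, while the second probe, reading 1041 and 1086, gave −0.43. *Tnfrsf9*, which encodes 4-1BB, likewise depended on the probe. The brighter probe read 6394 and 8159, a log2 difference of −0.14, and the other, close to background at 17.9 and 52.4, gave 1.06 with an SD of 0.456. With the mean of the 2 probes the gene stood at 0.46. The sign of *Tnfrsf1a* and *Tnfrsf9* was therefore not settled by these arrays.

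**Figure D3:**
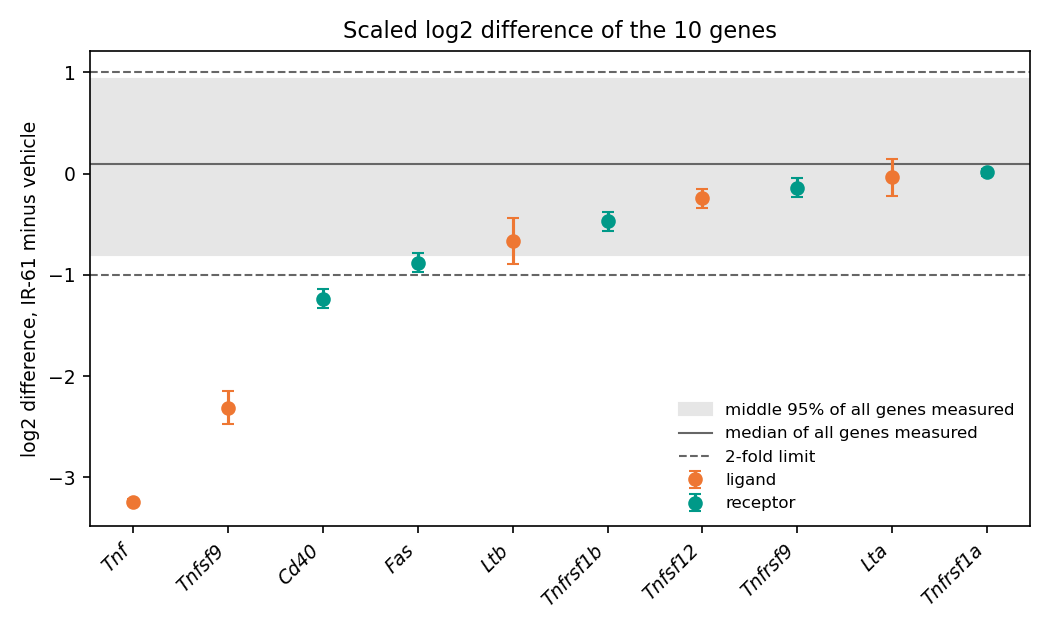
Log2 difference of each gene, IR-61 minus vehicle, with ligands and receptors in separate colours, bars for the SD that the spots give (smaller than the point for *Tnf* and *Tnfrsf1a*), a grey band for the middle 95% of all 16885 genes and dashed lines at 2-fold. *Tnf* at −3.24, *Tnfsf9* at −2.31, *Cd40* at −1.24 and *Fas* at −0.88 lie below the band, and the other 6 lie inside it.

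In increasing order the log2 differences were those of *Tnf*, *Tnfsf9*, *Cd40*, *Fas*, *Ltb*, *Tnfrsf1b*, *Tnfsf12*, *Tnfrsf9*, *Lta* and *Tnfrsf1a*. The first 3 were apart from each other and from *Fas* by more than 2 times the SD that the spots give, with 0.35 between *Cd40* and *Fas* against an SD of 0.134. From *Fas* onwards, neighbours in this order were 0.05 to 0.22 apart, which is 0.26 to 1.68 times that SD, so no neighbours among these 7 differed beyond 2 times the spread.

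Ligands and receptors that bind each other are given side by side. *Tnf* at −3.24 stood against 0.01 for *Tnfrsf1a* and −0.47 for *Tnfrsf1b*, and *Tnfsf9* at −2.31 against −0.14 for *Tnfrsf9*. For *Cd40* the receptor was the lower one, since *Cd40lg*, the T cell ligand of CD40, had a log2 difference of 0.70 from dim signals of 24.2 and 55.1. *Fasl*, encoding the ligand of FAS, did not stand clear of the background on the arrays. *Ltb* at −0.66 stood against 0.06 for its receptor gene *Ltbr*. Closer values were seen for *Tnfsf12* at −0.25 and its receptor gene *Tnfrsf12a* at −0.26, and for *Lta* at −0.04 and *Tnfrsf1a* at 0.01. Outside the 10 genes, *Tnfsf11* at 0.10 stood against 0.19 for *Tnfrsf11a*. *Tnfsf10* at 1.96, from dim signals of 25.5 and 139.5, stood against 0.44 for *Tnfrsf10b*.

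The gene cluster on chromosome 17 gave a wide range of values over a short stretch. In the order of the annotation, *Bag6* stood at −0.14, *Prrc2a* at −0.31, *Aif1* at 1.08, *Lst1* at 0.46, *Ltb* at −0.66, *Tnf* at −3.24, *Lta* at −0.04, *Nfkbil1* at 0.04, *Atp6v1g2* at 0.30 and *Ddx39b* at −0.36. By the brightest probes, *Tnf* was the only one of these 10 genes lower by 2-fold, with *Ltb* and *Lta* on its sides at less than 2-fold. *Aif1*, a macrophage gene encoding the calcium-binding protein IBA1, was 2.12-fold higher, with signals of 2273 and 6752. A second probe gave −0.02 for *Lst1* and −1.02 for *Ddx39b*. Next to the other members of the family on their chromosomes, 13 neighbour genes were measured and 0 differed by 2-fold, with *C3* at −0.44 and *Scnn1a* at 0.90 as their extremes.

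**Figure D4:**
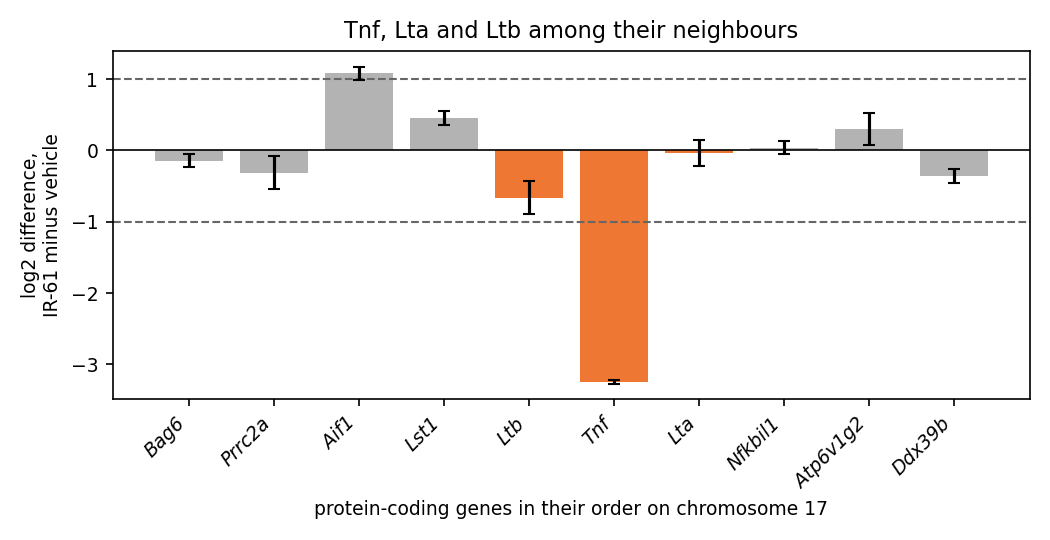
Log2 difference, IR-61 minus vehicle, of 10 protein-coding genes in their order on chromosome 17, with bars for the SD that the spots give. The bar of *Tnf* reaches −3.24 between *Ltb* at −0.66 and *Lta* at −0.04, and *Aif1* is the only bar above the 2-fold line.

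By their brightest probes, no other measured gene of the superfamily was lower by 2-fold. Of 13 other ligand genes 9 were measured, with 0 lower and 1 (11.1%) higher by 2-fold, against 1.39% and 1.99% of all genes. Their median was 0.10, the same as that of all genes. The higher one was *Tnfsf10*, encoding the death ligand TRAIL, with signals of 25.5 and 139.5 and a log2 difference of 1.96. The lowest value was that of *Tnfsf15*, at −0.49. *Fasl*, *Tnfsf4* and *Tnfsf8* stayed near the background of both arrays and have no value.

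Of 23 other receptor genes 21 were measured, with 0 lower and 1 (4.76%) higher by 2-fold, against 1.39% and 1.99% of all genes. Their median was 0.19. The higher one was *Tnfrsf17*, encoding the plasma cell receptor BCMA, with signals of 47.3 and 182.8 and a log2 difference of 1.46. When backgrounds were corrected with normexp instead, *Tnfsf10* and *Tnfrsf17* stood at 0.75 and 0.72, so neither passed the 2-fold limit. The lowest among the receptors measured was *Tnfrsf21*, encoding DR6, at −0.53. A second probe of *Tnfrsf13c*, encoding the BAFF receptor, read 97.9 and 56.8, a log2 difference of −1.27, against 0.24 on the brighter one. *Edar* was well above background with vehicle only, with signals of 19.5 and 15.4. Its log2 difference of −0.83, with an SD of 0.456 from probes of like brightness, was not counted as measured. *Eda2r* was well above background on neither array. Over all 40 superfamily genes measured, 3 were lower and 2 higher by 2-fold, and the median was 0.03.

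Genes that act just behind the receptors were mostly below 0. All 33 listed were measured, 2 (6.06%) were lower and 0 higher by 2-fold, against 1.39% and 1.99% of all genes. In 25 of the 33 the value was below 0, against 6554 of all 16885 genes, and the median was −0.23. The lowest was *Birc3*, which encodes the ubiquitin ligase cIAP2 that binds TRAF proteins at the receptor, with signals of 727 and 269. Its log2 difference was −1.92 with an SD of 0.229, a 3.79-fold lower signal. *Cflar*, encoding the caspase-8 inhibitor c-FLIP, read 3804 and 2539, a log2 difference of −1.07, and its other 2 probes gave −0.89 and −1.70. *Cflar* was under 2-fold with normexp, at −0.98, and with no scaling, at −0.58, which left 1 gene of the list lower by 2-fold in each case. A second probe of *Tank*, a TRAF-binding protein gene, gave −1.16, against −0.79 on its brighter one. The highest was *Chuk*, encoding the kinase IKKα, at 0.61. With no scaling 10 of the 33 were below 0 and the list's median was 0.26, while 25 of the 33 stayed below the median of all genes.

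The genes for the release of TNF from the membrane and for the control of its mRNA lay on both sides of 0. All 17 were measured, 6 were below 0 and 11 above, against 6554 and 10331 of all 16885 genes. The 2-fold limit was passed by 0 in either direction, against 1.39% lower and 1.99% higher among all genes. Their median was 0.10. With scaling by the median of the array 1 of them was lower by 2-fold, and with no scaling 4 were higher. Their extremes were *Zc3h12a*, encoding the mRNA-cutting enzyme Regnase-1, at −0.95, and *Rc3h1*, encoding Roquin-1, at 0.86 on its brighter probe and −0.25 on the other. For their roles, and after their values were seen, 2 more are given. *Adam17*, the protease that sheds TNF, read 871 and 1237, a log2 difference of 0.02. *Zfp36*, which encodes tristetraprolin, a protein that speeds the decay of *Tnf* mRNA, read 1581 and 1321, a log2 difference of −0.75.

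Of 5 genes named for induction by TNF, 1 (20%) was lower by 2-fold and 0 were higher, against 1.39% and 1.99% of all genes. Their median was 0.00. The lower one was *Tnfaip2*, at 10366 and 5231, a log2 difference of −1.48, and its second probe gave −1.26. *Tnfaip3*, encoding the NF-κB inhibitor A20 and also given for its role, stood at −0.77, and *Tnfaip8* was the highest of the 5 at 0.38, with −0.21 on its second probe. Over these lists together, without the 10 genes themselves, 84 genes were measured and their median was 0.00. By 2-fold, 3 (3.57%) were lower and 2 (2.38%) higher, against 1.39% and 1.99% of all genes.

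**Figure D5:**
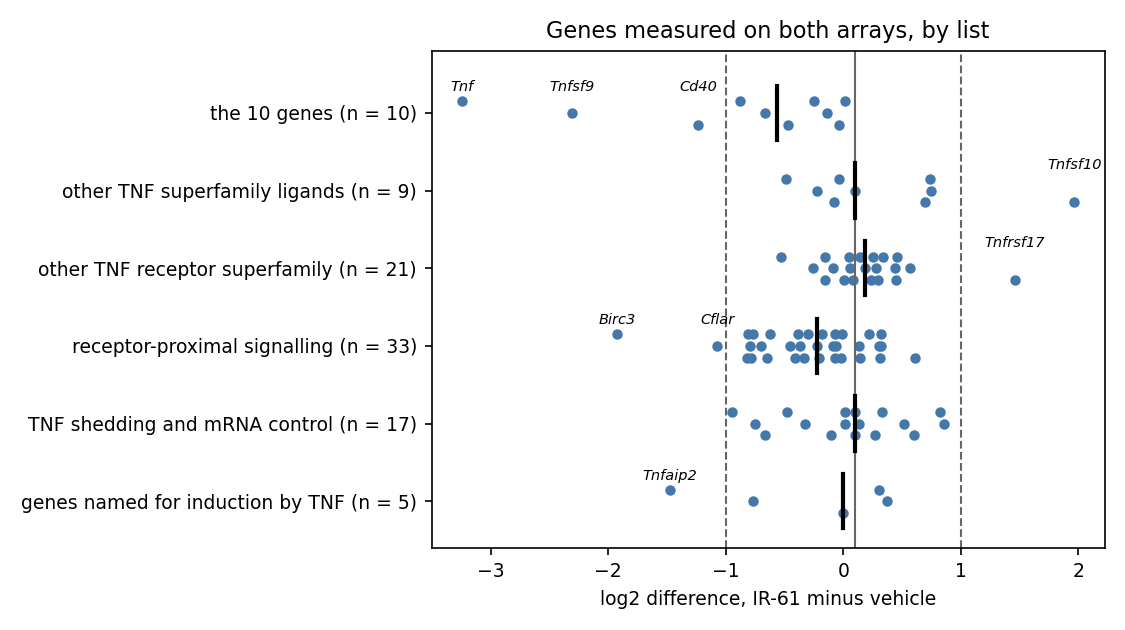
Log2 difference of each measured gene (points) in the 10 genes and in 5 lists of related genes, with a thick mark for the median of a list, a thin line for the median of all genes and dashed lines at 2-fold; *Tnfaip3* belongs to 2 lists. The medians run from −0.57 for the 10 genes and −0.23 for receptor-proximal signalling to 0.19 for the other receptors.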

How the data were processed

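RNA of 1 vehicle-treated and 1 IR-61-treated RAW264.7 culture was measured on 2 single-colour arrays. The authors deposited the intensity of each spot, background-subtracted and detrended by Agilent Feature Extraction (version 11.0.1.1 per the file headers, 11.0.0.1 in the submitters' processing notes), with flags for outliers, saturation and signal well above background. They also deposited a table of log2 values whose columns share the same median, 7.15, and correlate across probes with the scanner intensities (Pearson r 0.9995 for vehicle and 0.9988 for IR-61). Its scaling is not given in the sources used here.

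Control and outlier spots (124 and 139) were left out, no spot was saturated, log2 intensities were averaged per probe, and the 75th percentile of the array (10.30 for vehicle, 10.79 for IR-61) was subtracted. Of 39419 probes, 27224 were named through their accession in a RefSeq gene table of GRCm38.p6. That table served for names, chromosomes and gene order alone, since the arrays were designed on another assembly. A gene took its brightest probe. A probe was well above background where more than 50% of its spots were, which held for 77.6% and 81.2% of probes. Where this held on 1 array only, the gene was not counted as measured. The number of arrays limits the precision. The pooled SD between spots of probes printed 10 times was 0.347 and 0.296 under a log2 intensity of 6, 0.178 and 0.144 between 6 and 10, and 0.0703 and 0.0630 above.

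The members and lists were chosen with earlier results of these data known. Besides the members, genes were named where they passed 2-fold or were the extremes of a list, together with all neighbours in the *Tnf* cluster and the binding partners. Of 7 T cell markers 6 were measured and of 4 NK cell markers 2, none of them differing by 2-fold. The alternatives were scaling by the median, by the 75th percentile over detected probes, by quantiles, by loess or not at all, the deposited values, the mean over probes, outlier spots kept, normexp with offset 50 on the median signal, no filter or a stricter one (4 times the lowest signal well above background) on dim probes, and a 3-fold limit. On the IR-61 array, 4 spots with background above signal took the median background for normexp. The steps were tested on simulated data. Software was R 4.3.3 (limma 3.58.1) and Python 3.11.15 (numpy 2.4.6, pandas 2.3.3, matplotlib 3.10.9).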

Additional observations from a re-analysis of the deposited data

How the results depend on the processing

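*Tnf* and *Tnfsf9* were lower by 2-fold or more in all 12 ways of processing and also passed a 3-fold limit, and *Cd40* was lower by 2-fold in 11 of the 12, at −0.75 with no scaling. The count of members lower by 2-fold was 2 with no scaling and 2 at the 3-fold limit, against 3 otherwise, and the count higher was 0 throughout. The median of the members was −0.078 with no scaling and −0.66 with the stricter filter on dim probes, which left 9 members, against −0.57. All members measured lay below the median of all genes except *Tnfrsf9* with the mean over probes and *Tnfrsf1a* with normexp. Over the related lists, genes lower by 2-fold numbered 1 with no scaling, 1 at the 3-fold limit, 2 with normexp and 4 with scaling by the median, against 3 otherwise. Genes higher by 2-fold numbered 11 with no scaling, 0 with normexp, 0 with the stricter filter and 1 at the 3-fold limit, against 2. No scaling moved the median of all genes by the difference in brightness of the arrays, and the causes of the other changes were not tested. No call of 2-fold turned its direction. Leaving out a replicate was not possible. No paired analysis was possible because there was a single array for vehicle and a single array for IR-61. Signals near the detection limit of the arrays (12.8 for vehicle, 15.0 for IR-61) limit *Lta*, the dim probe of *Tnfrsf9*, *Tnfsf10* and *Tnfrsf17*.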
